A study of Mus musculus with 13 samples.

Results

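The genes described here encode the nuclear subunits of oxidative phosphorylation. They were taken by name from a mouse whole-genome array: every non-control probe whose gene name begins with Ndufa, Ndufb, Ndufc, Ndufs, Ndufv, Uqcr, Atp5 or Cox4 to Cox8, or is Sdha, Sdhb, Sdhc, Sdhd or Cycs. The rule used no measured value and found 128 of 41174 probes, which carry 87 of 27827 gene names. By what each encodes, 36 names belong to complex I, 4 to complex II, 7 to complex III, 18 to complex IV and 15 to complex V, and 1 is cytochrome c. The other 6 names match the rule but encode no subunit of these complexes. They are the complex I assembly factors Ndufaf1 and Ndufaf2, the supercomplex factor Cox7a2l, and Cox4nb (now Emc8), Atp5s (now Dmac2l) and Atp5sl (now Dmac2).

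RNA was measured in macrophages grown for 6 days from bone marrow of male C57BL/6 mice aged 12 to 16 weeks, in 30% L929-conditioned medium. Control cells carried Hdac3 with loxP sites around exons 4 to 7 and no Cre, and HDAC3 knockout (KO) cells carried the same floxed gene plus Cre under the lysozyme M promoter, so loss of HDAC3 and presence of Cre cannot be told apart. HDAC3 is a histone deacetylase that works in corepressor complexes. Cells received 0.1% bovine serum albumin as vehicle or 10 ng/mL interleukin-4 (IL-4), a cytokine known to drive alternative activation, for 24 hours. Of the 13 arrays, 4 are control vehicle, and KO vehicle, control IL-4 and KO IL-4 have 3 each. Whether the arrays within a group stem from different mice or dishes is not stated in the labels. The p-values therefore describe the spread among these arrays, which may be technical.

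Oxidative phosphorylation couples electron transport to ATP synthesis in the inner mitochondrial membrane. Complex I takes electrons from NADH and complex II from succinate, ubiquinone carries them to complex III, cytochrome c carries them on to complex IV, which reduces oxygen, and complex V uses the resulting proton gradient to make ATP. Alternatively activated macrophages are known for a reliance on this pathway, and the coactivator encoded by Ppargc1b is known to promote it in them.

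Levels are log2 signals relative to the 75th percentile of the same array, so a level of 0 is that percentile. Differences are log2 changes with standard errors (SE) from one limma fit of the 4 group means, tested over the 20603 genes whose signal stood well above background throughout 1 or more groups. A change was called at an adjusted p under 0.05. Of the 87 members, 85 passed that filter. The 2 that did not, Cox7b2 and Cox8b, are testis and heart or muscle isoforms. Of the subunits without the tissue isoforms of complex IV, 73 of 74 were well above background on all 13 arrays, the exception being Ndufs8 with 12. They were mostly bright, with a median at the 90.0th percentile of mean signal.

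The targeted gene was checked first. Hdac3 stood between -2.34 and -1.75 on the 7 control arrays and between -4.09 and -3.16 on the 6 KO arrays, with no overlap. It fell by 1.41 (SE 0.218, adjusted p = 0.00287) in vehicle and by 1.53 (SE 0.233, adjusted p = 0.00377) under IL-4, and its probe was not placed relative to the deleted exons. All 7 macrophage markers were well above background on all arrays. Markers of other cell types were detected in part. By group, 4 to 5 of the 7 neutrophil, 5 to 6 of the 7 fibroblast and 2 to 4 of the 6 dendritic cell markers were well above background on all arrays. The counts were 3 to 4 of 8 for T and NK, 3 of 5 for B, 3 of 5 for erythroid, and 1 to 3 of 6 for mast and eosinophil markers. Ela2 (neutrophil elastase) and Clec9a (dendritic cells) were well above background on none. The share of spots well above background ran from 56.2% to 83.2%, lowest on control vehicle array 4 and KO IL-4 array 15. Arrays lay on 4 slides, each holding at most 1 array of a group. Each group kept its own place on the slide throughout, and an effect of that place cannot be told apart from one of the group.

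Under IL-4 the subunit genes stood higher than in vehicle as a broad, small shift. In control cells 70 of the 74 subunits other than tissue isoforms had a positive log2 change, against 49.4% of all genes, with a median of 0.18 (13.4% more signal) against 0.00 over all genes. In KO cells 71 of 74 were positive, against 39.8% of all genes, with a median of 0.17 (12.3%) against -0.06. No subunit of this set was called on its own in either genotype in the reported fit. Over all 85 members the counts called were 0 in control cells, where 5.77% of all genes were called (2.66% higher, 3.10% lower). In KO cells 1 was called (Cox6a2, a tissue isoform), where 2.24% of all genes were (1.13% higher, 1.11% lower). At an unadjusted p under 0.05, 12 members were higher and 0 lower in control cells, where 1441 and 1568 of all 20603 genes were. In KO cells 13 were higher and 1 lower, where 1145 and 1416 of all genes were. The control and KO comparisons share no array. In both of them 69 of the 74 subunits (93.2%) had a positive change, against 27.7% of all genes.

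The shift was uneven between arrays. The median deviation of the 74 subunits from their control vehicle mean was 0.08, -0.12, 0.03 and 0.03 on control vehicle arrays 1 to 4, and 0.04, 0.06 and -0.07 on KO vehicle arrays 5, 6 and 7. It was 0.38, 0.02 and 0.17 on control IL-4 arrays 9, 10 and 12, and 0.09, 0.39 and 0.12 on KO IL-4 arrays 13, 14 and 15. Control IL-4 array 10 lay within the range of the vehicle arrays, while the other 5 IL-4 arrays lay above all 7 vehicle arrays. Array 14 held the highest value of all 13 arrays for 42 of the 74 subunits and array 9 for 24, and control vehicle array 2 held the lowest for 42.

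**Figure D1:**
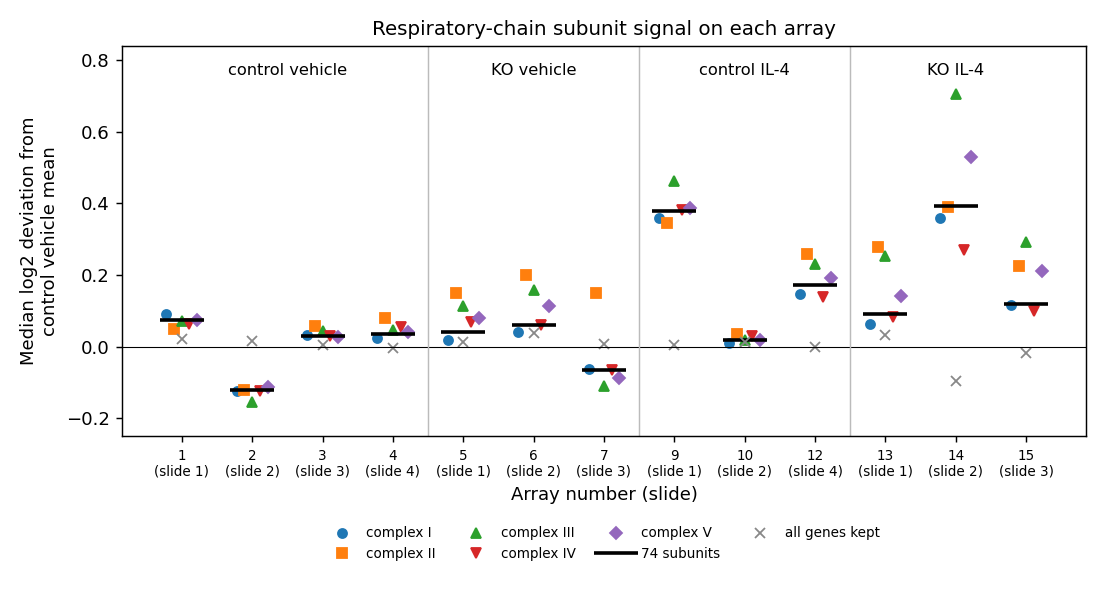
Median log2 deviation of the subunits of each complex from the control vehicle mean (vertical axis) on each of the 13 arrays (horizontal axis, with slide); black bars give the 74 subunits without tissue isoforms and grey crosses all genes kept. Arrays 9 and 14 stand highest, at 0.38 and 0.39 for the 74 subunits, and control vehicle array 2 lowest, at -0.12.

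Slide-matched differences kept the positive sign. Within slides 1, 2 and 4 the median change of the 74 subunits under IL-4 was 0.30, 0.14 and 0.14 in control cells. Within slides 1, 2 and 3 it was 0.05, 0.35 and 0.15 in KO cells. Of the 74 subunits, 48 (64.9%) were higher with IL-4 in all 6 of these array pairs, against 10.5% of all genes, and 1 (Ndufa6) was lower in all 6, against 10.1%. The size of the shift rested on single arrays. The median over all 85 members was 0.18 in control cells, 0.09 without array 9 and 0.27 without array 10. It was 0.15 in KO cells and 0.08 without array 14.

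Other measures moved with IL-4 as well, and their part in the shift was not tested. The 75th percentile of signal used for scaling was 531 to 593 on control vehicle arrays, 636 to 656 on KO vehicle arrays, 671 to 725 on control IL-4 arrays and 639 to 800 on KO IL-4 arrays. Scaling on the array median moved the median of all genes for IL-4 in KO cells from -0.06 to 0.04 and that of the members from 0.15 to 0.26. Bright genes as a class moved little: in the brightest 20% of all genes, which holds 61 of the 74 subunits, the median change was 0.04 in control and 0.03 in KO cells, against 0.18 and 0.17 for the subunits in it. Dim genes stood lower with IL-4 in KO cells. In the dimmest 20% the median there was -0.20 and 27.3% were higher, which lowers the share over all genes. The summed signal of the 7 macrophage markers, as a multiple of the 75th percentile, was 468 to 520, 443 to 468, 381 to 403 and 413 to 449 in control vehicle, KO vehicle, control IL-4 and KO IL-4 arrays. For the 15 cell-cycle genes the sums were 31.2 to 38.3, 29.0 to 34.4, 38.1 to 47.8 and 32.8 to 37.1 in the same order. A sum weighs bright markers most, and single macrophage markers went both ways. Their log2 changes with HDAC3 loss ran from -0.68 to 1.43 in vehicle and from -0.68 to 1.84 under IL-4. With IL-4 they ran from -0.90 to 0.205 in control and from -0.81 to 0.355 in KO cells. Over all arrays, neutrophil markers summed to between 2.88 and 10.8 and fibroblast markers to at most 6.23. The sums for dendritic, T and NK, B, mast and eosinophil, and erythroid markers stayed at or under 2.06. In bulk RNA, a change in the share of a cell type and a change in RNA per cell cannot be told apart.

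In complex III and the F1 head of complex V, the brightest probe per gene gave the same sign of the IL-4 difference in every slide pair, while its size varied. Within slides 1, 2 and 3 the KO medians were 0.08, 0.49 and 0.32 for complex III and 0.06, 0.53 and 0.35 for F1. On these probes all 7 complex III genes were higher with IL-4 in all 6 slide pairs, with medians of 0.22 in control and 0.26 in KO cells. A second Uqcrq probe had the opposite sign, at -0.08 in control and -0.02 in KO cells. Uqcrc1 (core protein 1, probe at chr9:108851624-108851683 in mm9) read 1.76, 1.72, 1.77 and 1.83 in control vehicle and 2.54, 1.97 and 2.07 in control IL-4 arrays. It read 1.68, 1.75 and 1.65 in KO vehicle and 2.14, 2.58 and 2.17 in KO IL-4 arrays. Every IL-4 array was above every vehicle array. The change was 0.42 (SE 0.144, adjusted p = 0.149) in control and 0.60 (SE 0.154, adjusted p = 0.0798) in KO cells, the largest of any member in KO cells, and a second Uqcrc1 probe gave 0.45 and 0.72. In KO cells the change was called in 7 of 14 alternative settings, with limma adjusted p from 0.0202 to 0.221. In control cells it was called in 1 of 14 (0.0335 to 0.359).

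Uqcrfs1, the Rieske iron-sulfur protein of complex III, read 1.91, 1.78, 1.91 and 2.03 in control vehicle and 2.46, 2.11 and 2.33 in control IL-4 arrays. In KO cells it read 2.15, 2.06 and 1.92 in vehicle and 2.23, 2.97 and 2.33 under IL-4. The groups did not overlap in either genotype, with array 14 the highest of all. Its changes were 0.39 (SE 0.165, adjusted p = 0.292) and 0.47 (SE 0.177, adjusted p = 0.280).

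All 5 F1 genes of complex V were higher in all 6 slide pairs, with medians of 0.25 and 0.32. Atp5b, the catalytic beta subunit, read 4.26, 4.01, 4.16 and 4.25 in control vehicle against 4.81, 4.29 and 4.49 in control IL-4 arrays. It read 4.25, 4.30 and 4.02 in KO vehicle against 4.43, 4.84 and 4.45 in KO IL-4 arrays. Again no IL-4 array fell within the vehicle range of its genotype, and all 3 Atp5b probes were higher in both genotypes (0.19 to 0.36 and 0.18 to 0.38). The changes were 0.36 (SE 0.146, adjusted p = 0.254) and 0.38 (SE 0.156, adjusted p = 0.327). Atp5d, the F1 delta subunit, had a change of 0.56 in KO cells (SE 0.233, adjusted p = 0.347) that differed widely by slide, at 0.06, 1.19 and 0.42. Of the 10 Fo and stalk genes, 8 were higher in all 6 pairs, with medians of 0.18 and 0.24. Atp5a1, the alpha subunit, differed by 0.22 (SE 0.0891, adjusted p = 0.253) in control and by 0.06 (SE 0.0952, adjusted p = 0.844) in KO cells on its brightest probe, and by 0.32 and 0.38 on its other probe.

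Complex I, the largest complex, had 33 of 36 genes higher under IL-4 in each genotype, with medians of 0.17 and 0.15. The 7 core subunits were all higher in both genotypes. Ndufs1, an iron-sulfur core subunit, differed by 0.16 (SE 0.131, adjusted p = 0.695) and 0.41 (SE 0.140, adjusted p = 0.216), without overlap of groups in either. Its dimmer probe gave 0.41 and -0.36, of opposite sign in KO cells. Ndufv1, which accepts the electrons of NADH, differed by 0.11 (SE 0.162) and 0.36 (SE 0.173), with array 14 at 3.06 and the other 12 arrays between 2.04 and 2.53. The accessory subunits Ndufb5 and Ndufb9 did not overlap between IL-4 and vehicle in either genotype, with changes of 0.22 and 0.21 for Ndufb5 and 0.35 and 0.32 for Ndufb9.

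Ndufa6, another accessory subunit of complex I, went against the rest. It read 3.06, 3.19 and 3.13 in KO vehicle and 2.79, 2.93 and 2.79 in KO IL-4 arrays, without overlap. The difference was -0.29 (SE 0.108, adjusted p = 0.264) in KO cells and -0.12 (SE 0.101, adjusted p = 0.705) in control cells. Ndufa2 was the other of the 74 with a negative value in both genotypes (-0.10 and -0.01).

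In complex II, Sdha, Sdhb, Sdhc and Sdhd were all higher under IL-4 in both genotypes, with medians of 0.16 and 0.13. Sdha, the flavoprotein that oxidises succinate, differed by 0.29 (SE 0.0888, adjusted p = 0.0906) in control and by 0.15 (SE 0.0949, adjusted p = 0.580) in KO cells, without overlap in either. Its 3 probes disagreed: the others gave 0.19 and 0.26, and -0.02 and -0.18. The 11 complex IV subunits that are not tissue isoforms were all higher in both genotypes, with medians of 0.13 and 0.16. Among them Cox8a did not overlap between IL-4 and vehicle in either genotype (0.27 and 0.16), while Ndufa4, named for complex I and since assigned to complex IV, differed by only 0.02 and 0.04. Cox4i1 differed by 0.24 and 0.26, and Cox5a by 0.13 and 0.33. Cycs, somatic cytochrome c, differed by 0.11 (SE 0.124, adjusted p = 0.815) and 0.17 (SE 0.132, adjusted p = 0.662), and its groups overlapped in both genotypes.

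**Figure D2:**
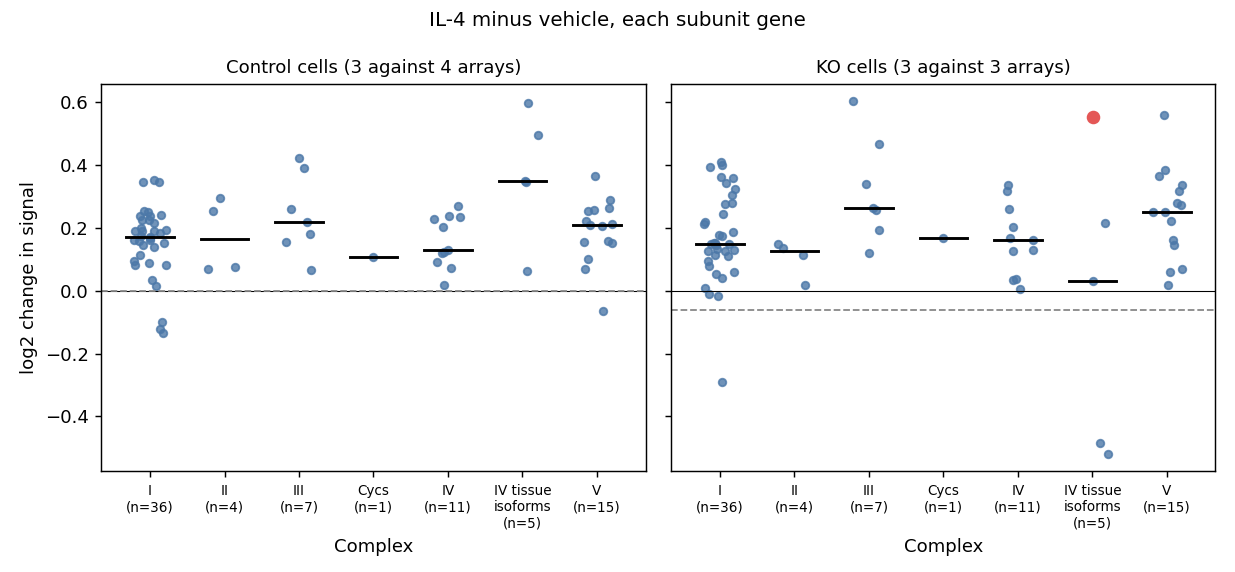
Log2 change with IL-4 (vertical axis) of each subunit gene by complex (horizontal axis, with the number of genes), in control cells on the left and KO cells on the right; black bars are medians, red marks a called gene and the dashed line is the median of all genes. Apart from the tissue isoforms, 70 of 74 and 71 of 74 genes lie above 0.

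Counting all 85 members, 14 did not overlap between IL-4 and vehicle arrays and were higher in control cells, where 8.17% of all genes did so, and 29 in KO cells, where 8.13% did. The 14 include the testis isoform Cox8c, which passed the filter only through control IL-4. Among the 74 subunits the counts were 12 and 27. Without overlap and lower were 0 members in control cells, against 8.47% of all genes, and 1 in KO cells (Ndufa6), against 10.5%. Among the 74 subunits, 8 were higher without overlap in both genotypes (Atp5b, Cox8a, Ndufb5, Ndufb9, Ndufs1, Sdha, Uqcrc1 and Uqcrfs1), against 3.91% of all genes. For the 6 names that encode no subunit the median was 0.00 in control cells, with 3 of 6 higher, and -0.10 in KO cells, with 1 of 6 higher. In control cells Cox4nb (0.31) was above the median of the 74 subunits (0.181) and Ndufaf2 (0.179) was close to it. Cox4nb read 1.98 on array 9, against 1.02 and 1.10 on arrays 10 and 12 and 0.871 to 1.305 in control vehicle. The difference of the 6 names from the subunits was not tested. Atp5sl had the most negative difference of any member in control cells, -0.39 (SE 0.181, adjusted p = 0.345), and differed by -0.42 in KO cells.

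HDAC3 loss left the subunits as a group near the median of all genes. In vehicle 42 of the 74 were higher in KO than in control cells, against 54.3% of all genes, with a median of 0.01 against 0.02. Under IL-4, 46 of 74 were higher, against 45.4%, with a median of 0.04 against -0.03. Of the 85 members, 2 were called in vehicle, 1 higher and 1 lower, where 4.72% of all genes were called (2.39% higher, 2.33% lower). Under IL-4 the limma count was 0, where 3.63% were called (1.96% higher, 1.67% lower). At an unadjusted p under 0.05, 2 members were higher and 3 lower, where 1489 and 1592 of all 20603 genes were. The 3 lower include the testis isoform Cox8c, which passed the filter only through control IL-4. Among the 74 subunits 1 was higher and 1 lower. Groups did not overlap for 8 members higher and 2 lower in vehicle, against 8.69% and 8.19% of all genes, and for 3 higher and 3 lower under IL-4, against 8.73% and 9.10%. Cox8c is again among the 3 lower under IL-4, and among the 74 subunits 2 were higher and 2 lower there. The 95% intervals of single subunits ran from -0.57 to 0.69 in vehicle and from -0.60 to 1.02 under IL-4 over the 74. Slides disagreed on the sign of the group: the median was -0.01, 0.19 and -0.09 within slides 1, 2 and 3 in vehicle, and -0.24 and 0.39 within slides 1 and 2 under IL-4.

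In complex II, Sdhd and Sdha were higher in KO than in control arrays without overlap at both treatments. Of all genes, 8.69% were so in vehicle and 8.73% under IL-4, and the share at both was not counted. Sdhd, a membrane anchor of succinate dehydrogenase (probe at chr9:50404630-50404689 in mm9), read 3.95, 3.68, 3.99 and 4.01 in control vehicle and 4.39, 4.41 and 4.27 in KO vehicle arrays. Under IL-4 it read 4.25, 3.99 and 4.25 in control and 4.53, 4.58 and 4.37 in KO cells. Every KO array was above every control array of the same treatment. Sdhd rose with HDAC3 loss by 0.45 (SE 0.111, adjusted p = 0.0419) in vehicle, which is a 1.37-fold higher signal, and slides 1, 2 and 3 gave 0.44, 0.73 and 0.28. Fitting slide as a fixed block gave an adjusted p of 0.0630. The difference under IL-4 was 0.33 (SE 0.119, adjusted p = 0.194), with 0.28 on slide 1 and 0.59 on slide 2. The vehicle call held in 3 of the 13 fits that leave out 1 array, those without array 9, 10 or 14, with adjusted p from 0.0412 to 0.180 over the 13.

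Sdha (probe at chr13:74460146-74460205) read 1.69, 1.54, 1.71 and 1.76 in control vehicle and 1.97 to 2.04 on the 3 KO vehicle arrays. Under IL-4 it read 2.04, 1.83 and 2.03 in control and 2.15, 2.22 and 2.09 in KO cells. The genotypes did not overlap at either treatment. The differences were 0.33 (SE 0.0888, adjusted p = 0.0622) and 0.18 (SE 0.0949, adjusted p = 0.413), and the other probes gave 0.03 and 0.36 in vehicle. Sdha was called in vehicle in 6 of 14 alternative settings, with adjusted p from 0.0198 to 0.466. Among the 74 subunits, Sdha and Sdhd were the only 2 higher in KO cells in all 5 slide pairs of the genotypes, a pattern of 9.29% of all genes, and none was lower in all 5, against 7.35%. Sdhb, the iron-sulfur subunit of the same complex, differed by -0.14 (SE 0.0954, adjusted p = 0.666) and -0.10 (SE 0.102, adjusted p = 0.734). Sdhc differed by 0.005 and -0.051, and differences between the 4 genes of complex II were not tested.

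Cycs (probe at chr6:50515255-50515314) read 3.37, 3.25, 3.38 and 3.34 in control vehicle and 3.10, 3.07 and 2.94 in KO vehicle arrays. Under IL-4 it read 3.59, 3.25 and 3.49 in control and 2.99, 3.48 and 3.14 in KO cells. The KO vehicle arrays lay below all control vehicle arrays, while the IL-4 groups overlapped through array 14. The differences were -0.30 (SE 0.124, adjusted p = 0.294) and -0.24 (SE 0.132, adjusted p = 0.453), and all 3 Cycs probes were negative in both comparisons (-0.30 to -0.28 and -0.25 to -0.24). On its brightest probe, Uqcrc1 differed by -0.08 (SE 0.144) in vehicle and by 0.10 (SE 0.154) under IL-4. That probe gave -0.40 on slide 1 and 0.61 on slide 2 under IL-4. The second Uqcrc1 probe differed by 0.08 in vehicle and by 0.35 under IL-4.

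**Figure D3:**
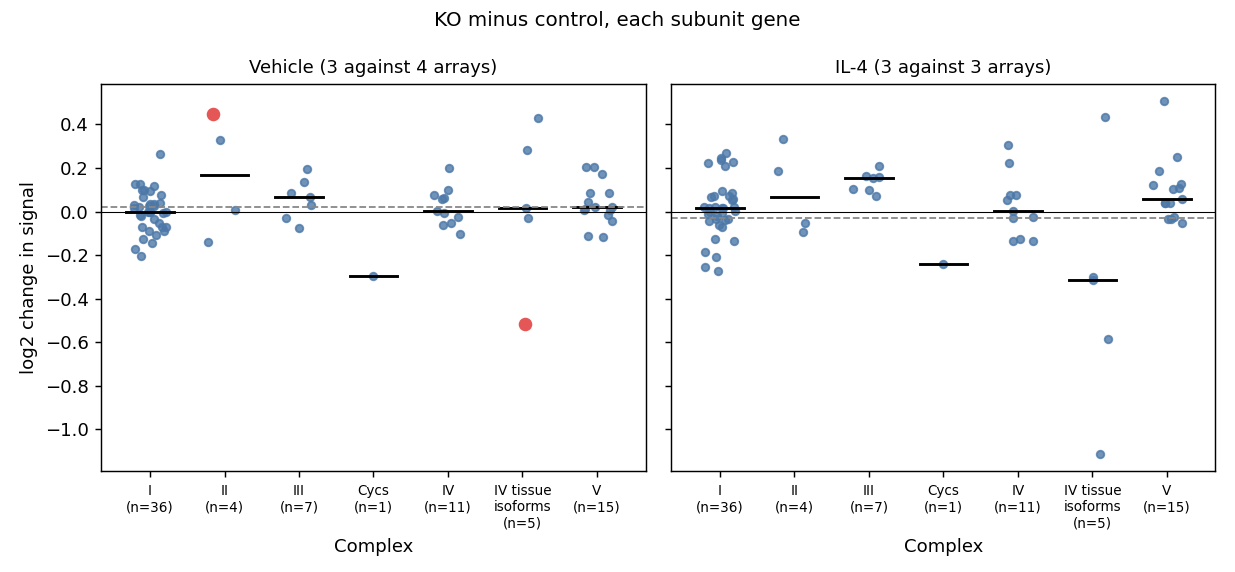
Log2 difference between KO and control cells (vertical axis) of each subunit gene by complex (horizontal axis, with the number of genes), in vehicle on the left and under IL-4 on the right; black bars are medians, red marks a called gene and the dashed line is the median of all genes. Sdhd (0.45) and Cox6a2 (-0.52) are the called genes in vehicle, and no gene is marked under IL-4.

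The tissue isoforms of complex IV, expressed in the main in muscle, heart, lung or testis, behaved differently from gene to gene. Cox6a2, the heart and skeletal muscle form of subunit 6a (probe at chr7:135349160-135349219), read 0.52, 0.36, 0.39 and 0.61 in control vehicle and -0.16, -0.15 and 0.16 in KO vehicle arrays. Under IL-4 it read 0.90, 0.86 and 0.69 in control and 0.40, 0.69 and 0.42 in KO cells. In vehicle the KO arrays were all below the control arrays, and in both genotypes the IL-4 arrays were all above the vehicle arrays.

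Cox6a2 fell by 0.52 (SE 0.119, adjusted p = 0.0292) with HDAC3 loss in vehicle, with -0.68, -0.51 and -0.23 within slides 1, 2 and 3. It rose by 0.55 (SE 0.127, adjusted p = 0.0489) with IL-4 in KO cells, with 0.56, 0.85 and 0.26 within slides 1, 2 and 3. These 2 comparisons share the KO vehicle arrays. With slide as a fixed block the adjusted p was 0.101 and 0.129. The vehicle call was lost without control vehicle array 1, 3 or 4 or KO vehicle array 5 or 6 (adjusted p from 0.0179 to 0.161 over the 13 fits), and the IL-4 call held only without KO vehicle array 7 (0.0412 to 0.192). IL-4 in control cells gave 0.35 (SE 0.119, adjusted p = 0.147), and HDAC3 loss under IL-4 gave -0.31 (SE 0.127, adjusted p = 0.264). Its ubiquitous counterpart Cox6a1 differed by -0.06 (SE 0.113) and 0.05 (SE 0.120) with HDAC3 loss.

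Cox7a1, the heart and skeletal muscle form of subunit 7a, read 0.27, -0.04, 0.16 and 0.15 in control vehicle and 0.41, 0.41 and 0.43 in KO vehicle arrays. Under IL-4 it read 0.30, 0.27 and 0.01 in control and 0.47, 0.71 and 0.70 in KO cells. The KO arrays were above the control arrays at both treatments, with differences of 0.28 (SE 0.108, adjusted p = 0.237) and 0.43 (SE 0.115, adjusted p = 0.0694). The ubiquitous form Cox7a2 differed by -0.01 (SE 0.0883) and -0.13 (SE 0.0944). The other pairs were Cox6b2, the testis form of subunit 6b, at 0.02 (SE 0.272) and -0.30 (SE 0.290), and Cox6b1 at -0.05 (SE 0.0899) and 0.00 (SE 0.0961). Cox4i2 and Cox8c were dim, well above background on 10 and 9 of 13 arrays. Cox8c, the testis form of subunit 8, passed the filter only through control IL-4, where it read -3.18 to -2.75. Under IL-4 the KO arrays read -5.25 to -3.51, and on 1 of these 3 it was well above background, so no difference is given for it. Cox4i2, well above background on 3 of 3 control and 2 of 3 KO arrays under IL-4, differed by -0.59 there (95% interval -1.83 to 0.66).

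**Figure D4:**
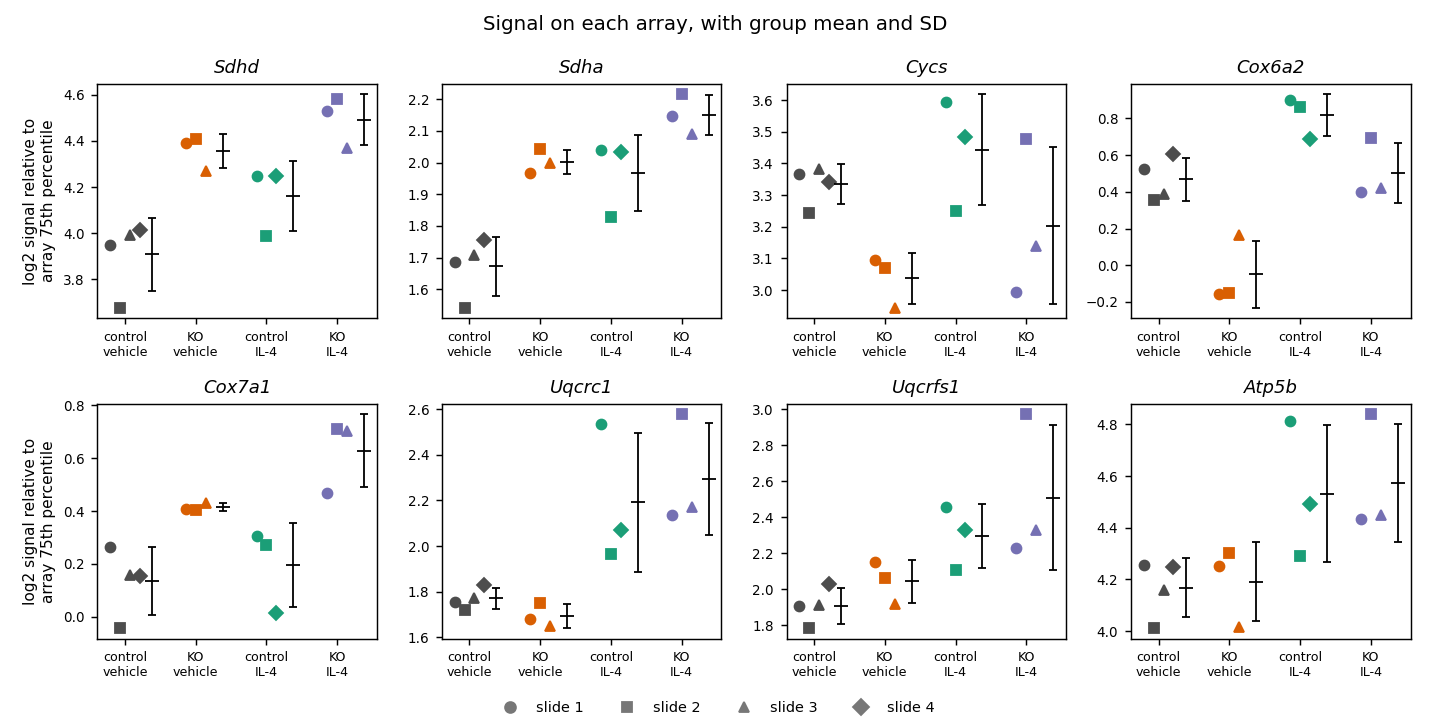
Log2 signal relative to the 75th percentile of the array (vertical axes) of 8 members in the 4 groups (horizontal axes); each symbol is 1 array, its shape gives the slide, and the black bar is the group mean with SD. Sdhd and Sdha are higher in KO than in control cells at each treatment, and Uqcrc1, Uqcrfs1 and Atp5b are higher with IL-4 in each genotype.

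Whether HDAC3 loss altered the IL-4 response was tested as an interaction. Of the 85 members 0 were called, where 0.00485% of all genes were. At an unadjusted p under 0.05 there were 0 members, where 325 of all 20603 genes were higher and 483 lower. The interaction was positive for 46 of the 74 subunits, against 43.8% of all genes, with a median of 0.05 against -0.04, and all 74 intervals lay within 1 log2 unit, from -0.67 to 0.999. Uqcrc1 gave 0.18 (SE 0.211), Sdhd -0.12 (SE 0.163), Sdha -0.15 (SE 0.130) and Cox6a2 0.20 (SE 0.174). The test left room for differences of that size in either direction.

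The promoters of the 74 subunits were searched for the letters of 4 regulators known to act on respiratory genes. RefSeq windows of 300 bases (250 before and 50 after the start, GRCm38.p6) were given for 63 of them. The words, on both strands, were gcatgcg for NRF1, ccggaag for the ETS family that includes GABP, aagatggc for YY1 and aaggtca for the estrogen-related receptors (ERR). The NRF1 word overlaps its own reverse complement in the run cgcatgcg. NRF1 letters were in 19% of the 63 genes (12 genes) against 4.96% of 17492 protein-coding genes, ETS letters in 25.4% against 12.9%, YY1 letters in 15.9% against 3.57%, and ERR letters in 12.7% against 4.73%. By complex, NRF1 letters were in 4 of 14 genes of complex V and 3 of 32 of complex I, and YY1 letters in 3 and 7. The promoter of Cycs, which had the NRF1 letters, and that of Sdhd, which had the ETS letters, are shown over the 250 bases before the start. Matched letters are in capitals. Both lie on the minus strand of GRCm38.p6, Cycs at chr6:50566570-50566819 and Sdhd at chr9:50603850-50604099.
Cycs: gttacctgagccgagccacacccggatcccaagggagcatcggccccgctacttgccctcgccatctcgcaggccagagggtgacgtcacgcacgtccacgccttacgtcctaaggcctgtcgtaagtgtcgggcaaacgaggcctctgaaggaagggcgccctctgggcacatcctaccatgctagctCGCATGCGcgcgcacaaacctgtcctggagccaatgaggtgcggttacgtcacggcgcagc
Sdhd: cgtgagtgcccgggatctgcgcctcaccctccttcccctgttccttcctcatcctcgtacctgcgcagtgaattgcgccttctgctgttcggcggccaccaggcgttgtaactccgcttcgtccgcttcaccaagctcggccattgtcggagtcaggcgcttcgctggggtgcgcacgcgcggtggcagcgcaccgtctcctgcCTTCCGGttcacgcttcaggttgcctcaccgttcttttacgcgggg

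In Cycs the NRF1 letters begin 61 bases before the start, and in Sdhd the ETS letters begin 46 bases before it. Sdhd also had ERR letters 37 bases into the transcript, and Uqcrc1 had NRF1 letters 32 bases into it. Under IL-4 the medians of subunits with and without matches lay furthest apart for YY1 letters in KO cells. The 10 genes with YY1 letters had medians of 0.16 in control and 0.21 in KO cells, against 0.19 and 0.15 for the 53 without. For the other words the medians lay closer together. The 12 genes with NRF1 letters had medians of 0.20 in control and 0.19 in KO cells, against 0.17 and 0.16 for the 51 without. The 35 with any of the 4 words had 0.18 and 0.16, against 0.18 and 0.16 for the 28 with none. With HDAC3 loss, genes with NRF1 letters had medians of -0.05 in vehicle and -0.01 under IL-4, against 0.02 and 0.04 without. For ETS letters the medians were -0.02 and 0.03, against 0.02 and 0.02 without. For YY1 letters they were 0.03 and 0.08, against -0.001 and 0.02 without. For ERR letters they were 0.02 and -0.02, against 0.01 and 0.04 without. A link between a motif and the IL-4 or genotype difference was not tested. A match describes the letters only, and binding was not measured here.

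**Figure D5:**
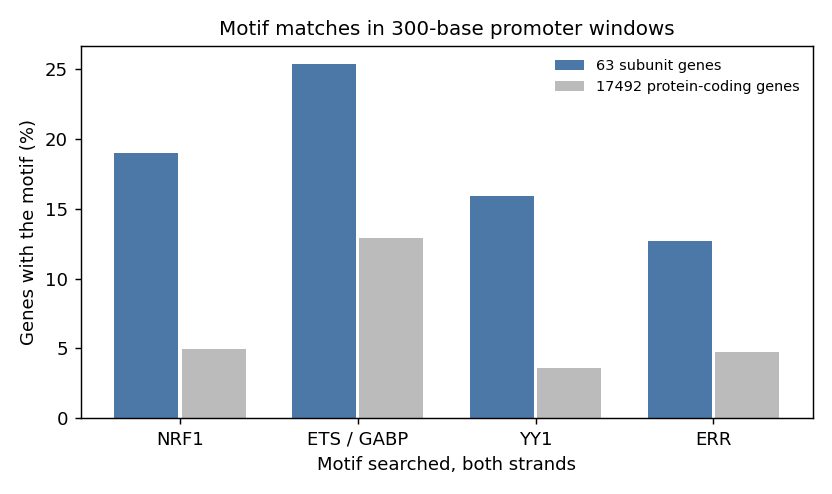
Percent of genes (vertical axis, from 0) whose 300-base promoter window holds each of 4 motifs (horizontal axis), for 63 subunit genes and 17492 protein-coding genes. The share was higher among subunit genes for each motif, from 12.7% for ERR to 25.4% for ETS / GABP.

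Gene lists around the pathway differed in how far they shared the IL-4 shift. Of 75 mitochondrial ribosome genes, which encode the machinery that translates mitochondrial mRNA, 55 were higher with IL-4 in control cells, against 49.4% of all genes. Their median was 0.09, and 2 were called (Mrps25 and Mrps36), against 5.77% of all genes. In KO cells 64 were higher (median 0.18), against 39.8% of all genes, and limma called 0, against 2.24%. At an unadjusted p under 0.05, 5 were higher and 1 lower in KO cells, where 1145 and 1416 of all 20603 genes were. Of 21 genes of the citric acid cycle and pyruvate entry, 14 and 17 were higher, with medians of 0.10 and 0.16. Of 22 assembly factors measured out of 37 listed, 12 and 15 were higher, with medians of 0.04 and 0.07. Tmem126b, a complex I assembly factor, rose with IL-4 in control cells by 0.44 (SE 0.110, adjusted p = 0.0396). The 21 regulators of mitochondrial biogenesis measured had medians of 0.03 and 0.01. Among these, Ppargc1b differed by 0.44 (SE 0.193, adjusted p = 0.316) and 0.43 (SE 0.206, adjusted p = 0.425). The mitochondrially encoded transcripts CYTB and COX2 differed by 0.23 and 0.09 in control and by 0.04 and -0.02 in KO cells.

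With HDAC3 loss in vehicle, 1 of the 21 citric acid cycle and pyruvate genes was called, and 0 of the 21 biogenesis regulators, 22 assembly factors and 75 ribosome genes, against 4.72% of all genes. Under IL-4 the counts were 1 of 21, 1 of 21, 0 of 22 and 0 of 75 in the same order, against 3.63%. At an unadjusted p under 0.05 the ribosome list had 1 higher and 0 lower in vehicle and 4 higher and 1 lower under IL-4, and the assembly factors 1 higher and 2 lower, then 0 higher and 1 lower. The biogenesis regulators had 2 higher and 0 lower in vehicle. Of all 20603 genes, 1490 were higher and 1324 lower in vehicle at that threshold, and 1489 and 1592 under IL-4. Brp44l (now Mpc1), which encodes a subunit of the mitochondrial pyruvate carrier, rose by 0.73 (SE 0.157, adjusted p = 0.0214) in vehicle and by 0.89 (SE 0.168, adjusted p = 0.0121) under IL-4. Sirt3, a mitochondrial deacetylase, rose by 0.59 (SE 0.128, adjusted p = 0.0255) under IL-4. The medians of the mitochondrial ribosome list were -0.01 and 0.04, close to those of the subunits.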

How the data were processed

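RNA was amplified with a NuGEN kit and labelled with Cy3, per the labels' protocols. The 13 deposited arrays give linear 1-channel intensity, extracted with Agilent Feature Extraction 10.5.1.1 per the file headers, whose gProcessedSignal is background-corrected. The submitters' processing notes name version 9.53 and limma. The deposited value table holds linear intensity with nearly equal quantiles in all columns, by a method not given in the sources used here.

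Outlier spots (101 probes) and controls were dropped, and repeat spots averaged. The 75th percentile of each array was subtracted from its log2 deposited gProcessedSignal. The filter kept 29059 probes with signal well above background throughout 1 or more groups, and the brightest probe per gene name. limma 3.58.1 in R 4.3.3 fitted 4 group means over 13 arrays (lmFit and eBayes, two-sided, Benjamini-Hochberg over 20603 genes). The number of arrays limits precision. Of 28 members with several kept probes, another probe had the opposite sign in 10 and 13 for vehicle and IL-4 genotype differences, and in 8 and 12 for IL-4 in control and KO cells. The number in the titles names an array and is shared by no 2 groups, so it pairs none.

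The members and lists were chosen with earlier results of these data known. Named genes are members called, the largest difference each way per comparison, core subunits and isoform pairs, Hdac3, Ppargc1b and the called list gene with the smallest adjusted p. Those named beyond it, such as Ndufa6, Ndufb5, Ndufb9, Ndufa2 and Mrps25, were chosen after their values were seen. Alternatives were other normalization, filters, probe rules, slide blocks, variance and weights, and leaving out arrays. The code was tested on simulated data.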

Additional observations from a re-analysis of the deposited data

Results flagged for a closer look

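In the 4 control vehicle arrays, array 2 lay below the others for the subunits of every complex, and its gap was wide against their range for complexes II and III. The median deviation from the control vehicle mean was -0.12 on array 2 for complex II, against 0.05 to 0.08 on the other 3 arrays. For complex III it was -0.155 on array 2, against 0.044 to 0.071. For complexes I, IV and V it was -0.124, -0.125 and -0.113 on array 2, against positive values on the other 3. These were 2 of 30 values checked in this way, and chance gives about 1 in 20 per group for a single value. The 30 values come from the same 4 arrays and are not independent, so that rate does not describe them together. Without that array, the median change of the members with IL-4 in control cells was 0.13, against 0.18 with it.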

How the results depend on the processing

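No result changed direction with a call under any alternative that was run. Without 1 array at a time, the number of members called ran from 0 to 2 for HDAC3 loss in vehicle, from 0 to 1 for IL-4 in KO cells, and was 0 for HDAC3 loss under IL-4, IL-4 in control cells and the interaction. The medians over members ran from -0.02 to 0.06, -0.07 to 0.11, 0.09 to 0.27, 0.08 to 0.22 and -0.10 to 0.11 for HDAC3 loss (vehicle, then IL-4), for the IL-4 response (control, then KO), and for the interaction. For HDAC3 loss in vehicle, 2 calls became 0 with median scaling, with no filter on dim probes, with slide as a fixed block, without the 2 arrays of lowest detection and with the compared groups only, and 5 with normexp and quantile normalization. They became 3 with quantile normalization alone, the authors' values, the filter on every array, trend and robust variance, or array weights, where Sdha was called too. Sdha was called in 6 of these 14 settings, with adjusted p from 0.0198 to 0.466. For IL-4 in KO cells, 1 call became 0 under the same settings (median scaling, no filter, fixed block, without those 2 arrays, compared groups only), 2 with quantile normalization, the authors' values, the filter on every array, trend and robust variance or array weights, and 3 with normexp. For HDAC3 loss under IL-4, 0 became 2 with normexp, 1 with the filter on every array and 2 with array weights. For IL-4 in control cells, 0 became 1 with quantile normalization, the authors' values or trend and robust variance, 2 with normexp and 4 with array weights. The causes were not tested. Within slides, the median over members for HDAC3 loss was 0.18 (slide 2) and -0.09 (slide 3) in vehicle, and -0.24 (slide 1) and 0.38 (slide 2) under IL-4, and for IL-4 in KO cells 0.28 (slide 2). With quantile normalization 65 of 85 members were higher with IL-4 in KO cells, against 75 in the reported fit. Signal over background limits Cox4i2 and Cox8c. The array numbers in the labels are shared by no groups and pair no arrays, so slide alone served as a block.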
